A study of Mus musculus with 8 samples.

Results

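Cholinergic neurons make, package, recapture and break down acetylcholine, and visceral motor neurons are the cholinergic cells of the hindbrain and spinal cord that drive autonomic ganglia and the muscles of the face, jaw and throat. The 7 genes described here belong to that programme and were chosen by name: the transcription factors Phox2a and Tbx20, the acetylcholine genes Chat, Slc18a3, Slc5a7 and Ache, and the filament gene Prph. They are 7 of the 27255 genes compared on these arrays, and each is represented by the probe with the highest mean intensity among those that carry its symbol.

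Choline acetyltransferase (Chat) makes acetylcholine from choline and acetyl-CoA, the vesicular transporter (Slc18a3, also called VAChT) loads it into synaptic vesicles, acetylcholinesterase (Ache) splits it in the synaptic cleft, and the choline transporter (Slc5a7) returns the choline to the terminal. Phox2a is a homeodomain factor of visceral and branchial motor neurons and of noradrenergic neurons, and Tbx20 is a T-box factor of hindbrain motor neurons that also acts in the heart. Peripherin (Prph) is an intermediate filament of neurons whose axons leave the central nervous system.

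RNA came from neurospheres, which are stem and progenitor cells of the nervous system grown as free-floating balls, here derived from EB3 mouse embryonic stem cells by way of embryoid bodies made with Noggin, a blocker of BMP signals. The 8 groups, 1 single-colour array each, crossed 2 passages with 4 lentiviral conditions: shNr2f1/2 (an shRNA vector against the nuclear receptors Nr2f1 and Nr2f2) with shCont (an shRNA against firefly luciferase), and miR17 (miR-17 overexpression) with miRCont (a control miRNA), each in tertiary neurospheres (P2) and in primary neurospheres (P0). All groups carried a vector, given at an MOI of about 25 when the embryoid bodies were dissociated on day 6, and all grew in 20 ng/ml FGF2, P0 for 6 days and P2 through further rounds of dissociation. The labels do not say that cultures were grown independently, so p-values measure only the spread between these arrays.

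Levels below are log2 of the processed intensity relative to the array's 75th percentile, so a level of 0 is the brightness of the upper quartile. A probe the image software did not find well above background has a level that is only a surrogate. Between 57.9% and 67.9% of non-control spots were well above background, and the upper-quartile intensity was 530 to 1060. The knockdown had lower values of both targets: Nr2f1 was 2.25-fold lower in shNr2f1/2 than in shCont at P2 and 1.73-fold lower at P0, and Nr2f2 was 1.87-fold and 1.42-fold lower. Neither passed the test over both passages (limma adjusted p = 0.999 for both), and Nr2f2 differed more between the control arrays, 2.30-fold lower in miRCont than in shCont at P2. The summed level of 10 neuron markers (Tubb3, Elavl4 and others, on the log2 scale) was 6.37 to 7.07 on P2 arrays and 6.87 to 8.12 on P0 arrays, which overlap and were nearly level in the shRNA vectors. Snap25 made up much of the highest P0 sums, at 7.39 of 8.12 in miR17 and 6.88 of 7.68 in miRCont on the log2 scale. The summed level of 5 astrocyte markers did not overlap, at 3.69 to 8.04 on P2 arrays and 1.69 to 2.69 on P0 arrays.

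The probes are 60-base oligonucleotides, and their sequence bears on how the values can be read. The Slc18a3 probe lies on mouse chr14:33275627-33275686 (build mm9, minus strand) and the Chat probe on chr14:33221421-33221480 of the same strand, 54146 bases apart, because the Slc18a3 gene sits inside the first intron of Chat. The last 30 bases of each are shown with the polyadenylation signal AATAAA of the Slc18a3 probe, and the simple repeat of the Chat probe, in capitals.
Slc18a3: ggcctgaattAATAAAccatatctgtctga
Chat: gctattcAGAAAGAAAGAAAGAAAGAAaga
The Slc18a3 probe carries the AATAAA signal near its 3′ end. The Chat probe repeats AGAA over 20 bases, and Chat had no other probe, so no second probe checks its values. The Phox2a probe lies at chr7:108971127-108971186 (plus strand), the chosen Slc5a7 probe at chr17:54413269-54413328 (minus), the chosen Ache probe at chr5:137733122-137733181 (plus), the Prph probe at chr15:98889042-98889101 (plus) and the chosen Tbx20 probe at chr9:24544715-24544774 (minus), all mm9.

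The overexpressed miRNA is shown with its seed, bases 2 to 8, in capitals, as the RefSeq miRNA table (GRCm38.p6) gives the mature mouse sequence. The labels name miR-17 without an arm, and the 5p arm is shown.
mmu-miR-17-5p: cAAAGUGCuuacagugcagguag
It lies at chr14:115043684-115043706 (GRCm38.p6, plus strand), and 7 mature mouse miRNAs of that table, itself included, carry this seed.

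The promoters of Phox2a, Slc18a3 and Chat are given because Phox2a and Slc18a3 passed the passage test below and Chat is the host gene of Slc18a3. Each is the RefSeq GRCm38.p6 sequence from 250 bases before to 50 bases after the annotated start, with E-boxes (CANNTG), the core bound by basic helix-loop-helix factors, in capitals. Phox2a is chr7:101818063-101818362 (plus strand), Slc18a3 chr14:32464801-32465100 (minus) and Chat chr14:32465860-32466159 (minus).
Phox2a: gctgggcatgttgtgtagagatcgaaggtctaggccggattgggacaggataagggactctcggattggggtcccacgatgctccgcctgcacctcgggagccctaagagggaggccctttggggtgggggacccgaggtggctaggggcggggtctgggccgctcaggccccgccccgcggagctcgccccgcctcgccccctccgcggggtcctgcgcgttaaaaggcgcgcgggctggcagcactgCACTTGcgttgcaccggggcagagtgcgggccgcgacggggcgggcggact
Slc18a3: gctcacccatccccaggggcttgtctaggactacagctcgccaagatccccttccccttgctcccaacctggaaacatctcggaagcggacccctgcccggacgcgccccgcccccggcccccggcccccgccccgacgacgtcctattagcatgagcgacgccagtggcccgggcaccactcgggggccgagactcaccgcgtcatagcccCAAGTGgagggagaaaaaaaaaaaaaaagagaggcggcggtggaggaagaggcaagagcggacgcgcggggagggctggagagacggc
Chat: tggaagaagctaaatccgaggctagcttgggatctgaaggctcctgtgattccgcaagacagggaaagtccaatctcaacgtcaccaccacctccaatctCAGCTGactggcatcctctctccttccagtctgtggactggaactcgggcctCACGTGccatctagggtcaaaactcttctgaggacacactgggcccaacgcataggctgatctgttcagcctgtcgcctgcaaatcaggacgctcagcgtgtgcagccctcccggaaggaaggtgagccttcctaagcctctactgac
All 7 genes had a promoter in that table. CANNTG occurred 4 times in Slc5a7, 2 times in Chat, 1 time each in Phox2a, Slc18a3 and Ache, and in neither Tbx20 nor Prph, against 72.3% of the 32851 promoters with at least 1. The nuclear receptor half-site AGGTCA, the core recognised by receptors of the Nr2f kind, was in none of the 7 windows on either strand and in 16.3% of all promoters. TAAT, the homeodomain core, was in the windows of Tbx20 and Slc18a3 and in 58% of all promoters. Matches to different motifs can overlap where their end letters are shared, and a missing match says only that these letters are not in the window.

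**Figure D1:**
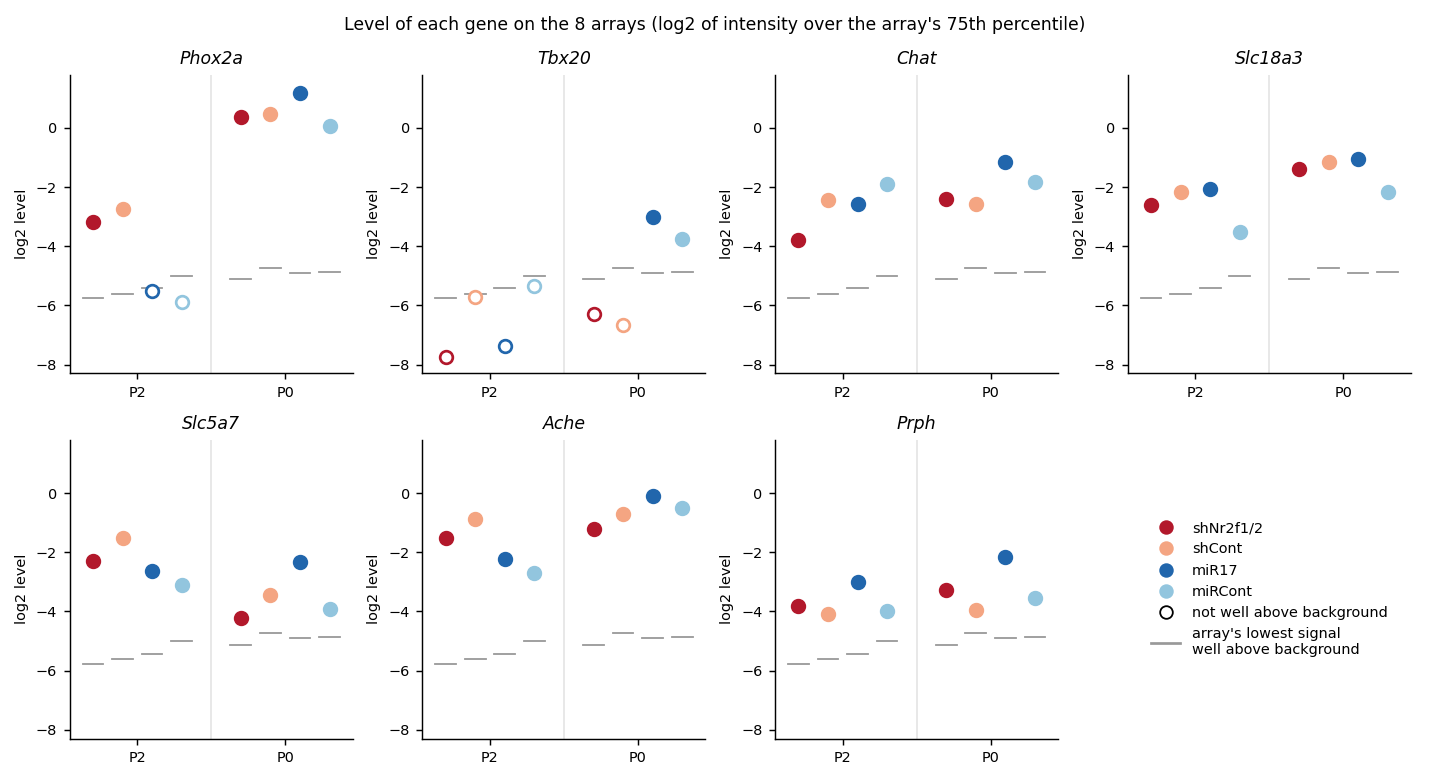
Log2 level of each gene (y axis, relative to the array's 75th percentile) on the 4 P2 and 4 P0 arrays, coloured by condition, with hollow points where the probe was not well above background and grey bars at each array's lowest signal well above background. Phox2a separates the passages, at -5.88 to -2.74 on P2 arrays and 0.06 to 1.18 on P0 arrays, and Tbx20 is above background on 2 P0 arrays only.

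The main comparison asked how tertiary neurospheres differ from primary ones. Phox2a and Slc18a3 were lower at P2 and passed the test, Chat, Ache, Prph and Tbx20 had lower means that did not pass it, and Slc5a7 had a higher mean that did not pass it. In limma with condition as a block, 2 of the 7 genes were called lower and 0 higher at an adjusted p under 0.05, where 2.33% of all genes were called lower and 2.58% higher. The median difference of the 7 was -1.14 (log2, P2 minus P0), beside -0.21 over all genes. The all-gene median moved to -0.02 under quantile normalization, so differences near that size depend on the scaling. Tbx20 entered the comparison only through its 2 P0 miRNA arrays, so its lower P2 mean follows from how it was admitted.

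Phox2a, the visceral motor and noradrenergic homeodomain factor, had levels of -3.18 in shNr2f1/2, -2.74 in shCont, -5.51 in miR17 and -5.88 in miRCont neurospheres at P2. At P0 the levels were 0.38 in shNr2f1/2, 0.47 in shCont, 1.18 in miR17 and 0.06 in miRCont. All P0 arrays were above all P2 arrays, and on both P2 miRNA arrays the probe was not well above background, at intensities of 15.8 in miR17 and 9.86 in miRCont. Non-overlapping passages with P2 the lower occurred in 15.2% of all genes.

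The fall of Phox2a was at least 24.4-fold, with 2 of the 4 P2 arrays setting a bound rather than a value (fitted log2 difference -4.85, SE 0.68, limma adjusted p = 0.0372). It was 11.8-fold in the shNr2f1/2 pair and 9.20-fold in the shCont pair, and at least 97.6-fold in the miR17 pair and at least 33.4-fold in the miRCont pair. Leaving out an shNr2f1/2 array kept the call (adjusted p = 0.0245), but the adjusted p was 0.117 without either shCont array, 0.151 without either miRCont array and 0.156 without either miR17 array. In bulk RNA fewer cells of a type and less RNA per cell cannot be told apart, here or for any gene below.

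Slc18a3, the vesicular transporter, had levels of -2.60 in shNr2f1/2, -2.17 in shCont, -2.08 in miR17 and -3.51 in miRCont at P2. At P0 it had -1.40 in shNr2f1/2, -1.17 in shCont, -1.06 in miR17 and -2.18 in miRCont. The passages overlapped slightly, since the miRCont array at P0 lay below the miR17 and shCont arrays at P2, but each condition was lower at P2 than at P0.

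Slc18a3 fell 2.2-fold at P2 (log2 difference -1.14, SE 0.18, limma adjusted p = 0.0428), with differences of -1.21 in shNr2f1/2, -1 in shCont, -1.02 in miR17 and -1.33 in miRCont. The 4 falls lay close together, unlike those of Phox2a. Under quantile normalization the difference was -0.90 (adjusted p = 0.052). The adjusted p was 0.042 without either shNr2f1/2 array, 0.128 without either shCont array, 0.179 without either miRCont array and 0.172 without either miR17 array. In this fit an array left out also takes its partner of the other passage out of the difference. The calls of Slc18a3 and Phox2a were thus both lost without the shCont, the miRCont or the miR17 pair.

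Chat, the host gene of Slc18a3, did not pass the passage test. Its levels at P2 were -3.78 in shNr2f1/2, -2.43 in shCont, -2.56 in miR17 and -1.89 in miRCont. At P0 they were -2.41 in shNr2f1/2, -2.56 in shCont, -1.16 in miR17 and -1.82 in miRCont. Both control conditions were nearly level across passage, with differences of 0.13 in shCont and -0.06 in miRCont, while the shNr2f1/2 and miR17 pairs were 2.59-fold and 2.65-fold lower at P2. The mean difference was -0.68 (SE 0.36, limma adjusted p = 0.209), and it was 0.03 in the control conditions alone.

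Slc5a7, the choline transporter, was the 1 gene of the 7 whose mean was higher at P2. Its levels at P2 were -2.31 in shNr2f1/2, -1.52 in shCont, -2.63 in miR17 and -3.11 in miRCont. At P0 they were -4.22 in shNr2f1/2, -3.45 in shCont, -2.32 in miR17 and -3.93 in miRCont. The P2 values were 3.75-fold higher in the shNr2f1/2 pair, 3.81-fold in the shCont pair and 1.77-fold in the miRCont pair, and 1.23-fold lower in the miR17 pair. The mean difference of 1.09 (SE 0.44) did not pass (limma adjusted p = 0.129). A second probe 379 bases away gave a larger mean difference of 1.89, with surrogate levels on 3 P0 arrays.

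Ache, which ends the cholinergic signal, split by vector. Its levels at P2 were -1.52 in shNr2f1/2, -0.86 in shCont, -2.22 in miR17 and -2.69 in miRCont. At P0 they were -1.22 in shNr2f1/2, -0.69 in shCont, -0.10 in miR17 and -0.51 in miRCont. The miRNA-vector pairs were 4.36-fold (miR17) and 4.53-fold (miRCont) lower at P2, and the shRNA-vector pairs 1.23-fold (shNr2f1/2) and 1.13-fold (shCont) lower. The mean of -1.19 (SE 0.45) did not pass (limma adjusted p = 0.117), and the second Ache probe gave -0.96.

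Prph, the peripheral axon filament, was low throughout and varied least, over 1.90 log2 units on the 8 arrays against 7.06 for Phox2a. Its levels at P2 were -3.82 in shNr2f1/2, -4.08 in shCont, -3 in miR17 and -3.99 in miRCont. At P0 they were -3.27 in shNr2f1/2, -3.96 in shCont, -2.17 in miR17 and -3.53 in miRCont. All 4 pairs were lower at P2, with differences of -0.82 to -0.12, and the mean of -0.49 (SE 0.20) did not pass (limma adjusted p = 0.134).

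Tbx20, the T-box factor, was well above background on 2 arrays only, at -3 in miR17 and -3.75 in miRCont neurospheres at P0, at intensities of 66.2 in miR17 and 41.2 in miRCont. The other 6 arrays gave surrogate levels of -7.73 to -5.35, and the P2 value was at least 5.37-fold lower in the miR17 pair and at least 2.39-fold lower in the miRCont pair. The mean difference did not pass (limma adjusted p = 0.205). Of its 2 other probes, 1 was above background on the P0 miR17 array alone and 1 on no array, so in these cultures this motor neuron marker was measured at P0 in the miRNA vectors only. Of 7 heart and mesoderm markers, Tnnt2, Myl7 and Hand1 were not well above background on the 2 arrays needed to be compared. The summed level of the other 4 was 2.94 to 3.89 at P2 and 2.10 to 3.38 at P0. Nearly all of that sum was Kdr, at 2.91 to 3.88 at P2 and 2.06 to 3.36 at P0. Nkx2-5, Gata4 and Mef2c had levels of -3.29 or lower on every array.

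**Figure D2:**
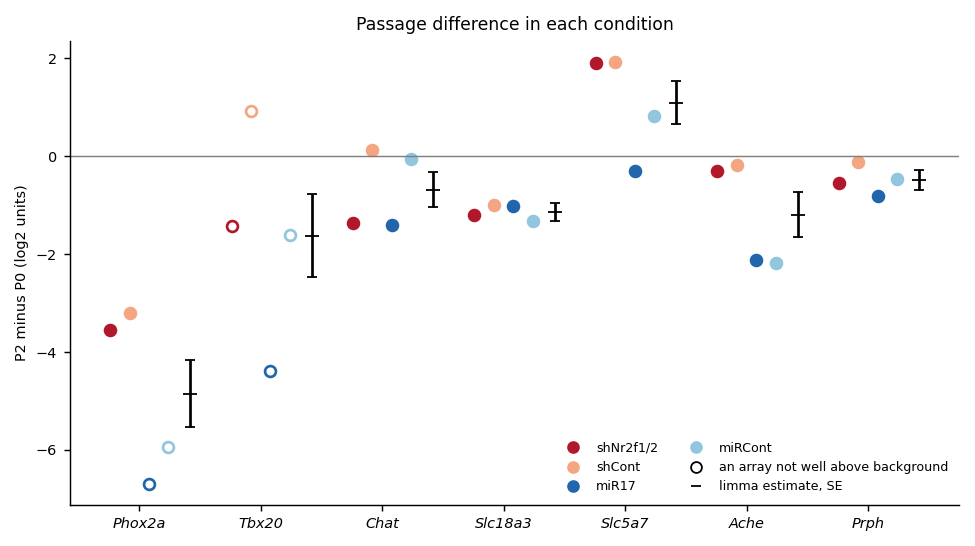
Difference between the P2 and P0 arrays (y axis, log2 units) in each of the 4 conditions, with the limma estimate and its SE in black at the right of each gene and hollow points where an array was not well above background. Slc18a3 differs by -1.33 to -1 in all conditions, and Ache and Phox2a are lower by more in the miRNA vectors than in the shRNA vectors.

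The passage difference of 2 genes depended on the vector system, in a test added after the data were seen. For Phox2a the mean difference was -6.32 in the miRNA vectors and -3.38 in the shRNA vectors, an interaction of -2.93 (SE 0.39, limma adjusted p = 0.0341) that uses surrogate levels on 2 arrays. For Ache the means were -2.15 and -0.24, an interaction of -1.91 (SE 0.27, limma adjusted p = 0.0363). Both were more negative in the miRNA vectors, a direction called in 6.78% of all genes. The Slc5a7 interaction of -1.66 did not pass (limma adjusted p = 0.0916), and the Slc18a3 means were -1.18 and -1.1, an interaction of -0.07 (SE 0.29, limma adjusted p = 0.888). With normexp background correction the Phox2a interaction was -0.97 and lost the call (limma adjusted p = 0.193), and that of Ache was -1.45 and kept it (limma adjusted p = 0.0269). Without a filter on dim probes neither passed (limma adjusted p = 0.0529 for Phox2a and 0.0573 for Ache). The shRNA arrays lay in 1 column of the slide and the miRNA arrays in the other, so vector system and slide column cannot be told apart.

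The second comparison set the Nr2f1 and Nr2f2 knockdown against its control, with 1 array on each side. Chat was the 1 gene of 6 measured that passed 2-fold at P2, where 9.90% of all genes were at least 2-fold lower, and none of 6 did at P0, where 4.14% of all genes passed 2-fold in either direction. Tbx20 was not well above background on either array of each pair. At P2 Chat was 2.55-fold lower in shNr2f1/2 than in shCont, and at P0 it was 1.11-fold higher. Slc5a7 was lower in shNr2f1/2 at both passages, with differences of -0.79 at P2 and -0.77 at P0, and so was Ache, with -0.66 and -0.53. Prph was higher at both, with 0.26 and 0.69.

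Over both passages the knockdown gave 0% of genes called in limma (518 of 27255 had an unadjusted p under 0.05), and each of the 7 had an adjusted p of 0.999. The interaction of knockdown with passage gave 0 calls as well, with 1076 genes at an unadjusted p under 0.05. For Chat that interaction was -1.41 (SE 0.69, limma adjusted p = 1). The same pair of P2 arrays differed strongly in glial markers, with a median of -4.41 over 5 astrocyte genes and 4 of them at least 2-fold lower in shNr2f1/2, while the 10 neuron markers had a median of -0.03. The part of those cells in the Chat value was not tested.

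The third comparison set miR-17 against its control miRNA. All 7 genes were higher in miR17 than in miRCont at P0, with a median difference of 1.12 beside 0 over all genes, and 4 of them, Phox2a, Slc18a3, Slc5a7 and Prph, by at least 2-fold, as 4.16% of all genes were. At P2, where 3.36% of all genes were at least 2-fold higher, 4 of 5 measured genes were higher and Slc18a3 passed 2-fold. Phox2a and Tbx20 were not well above background on either P2 array.

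Slc18a3 was 2.69-fold higher in miR17 at P2 and 2.17-fold at P0, and Prph 2-fold, just under the 2-fold limit before rounding, at P2 and 2.56-fold at P0. Slc5a7 was 1.40-fold higher at P2 and 3.05-fold at P0, Phox2a 2.18-fold higher at P0, and Ache 1.39-fold and 1.34-fold. Chat went opposite ways, 1.60-fold lower at P2 and 1.59-fold higher at P0. Over both passages the estimates were 1.27 for Slc18a3 (SE 0.25, unadjusted p = 0.00345 in limma across all genes) and 1.18 for Prph (SE 0.28, unadjusted p = 0.00814).

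By unadjusted p, Slc18a3 ranked 10 and Prph 30 of 27255 genes, but neither passed after adjustment (limma adjusted p = 1 for both). limma called 0 genes for miR-17, with 271 at an unadjusted p under 0.05, and 0 for its interaction with passage, with 295. The 10 neuron markers were also higher on the miR17 arrays, with medians of 0.73 at P2 and 0.50 at P0, and 9 of 10 higher at each passage. Their part in the Slc18a3 and Prph values was not tested.

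The control arrays give the size of differences that neither manipulation made. This pair also differs in vector system and slide column, which the knockdown and miR-17 pairs do not. In miRCont against shCont at P2, 4 of 6 measured genes were at least 2-fold lower, where 14.3% of all genes were: Phox2a by at least 4.8-fold, Ache by 3.57-fold, Slc5a7 by 3-fold and Slc18a3 by 2.54-fold. At P0 Slc18a3 was 2.02-fold lower and Tbx20 at least 1.99-fold higher, and at P0 21.1% of all genes passed 2-fold by their measured levels. Tbx20 was admitted only through its 2 P0 miRNA arrays, so its higher value in miRCont at P0 follows from how it was admitted. The miRCont array gave the lowest Slc18a3 level at both passages, against both the miR17 and the shCont array. limma called 0 genes for the controls over both passages, with 2613 at an unadjusted p under 0.05, and the Slc18a3 estimate was -1.18 (SE 0.25, limma adjusted p = 0.512). At P2 the 10 neuron markers had a median of -1.89 in this pair, with 7 at least 2-fold lower in miRCont, and all 6 genes of neuronal intermediate filaments and axons were at least 2-fold lower, with a median of -2.36. Their part in the 4 lower values was not tested.

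**Figure D3:**
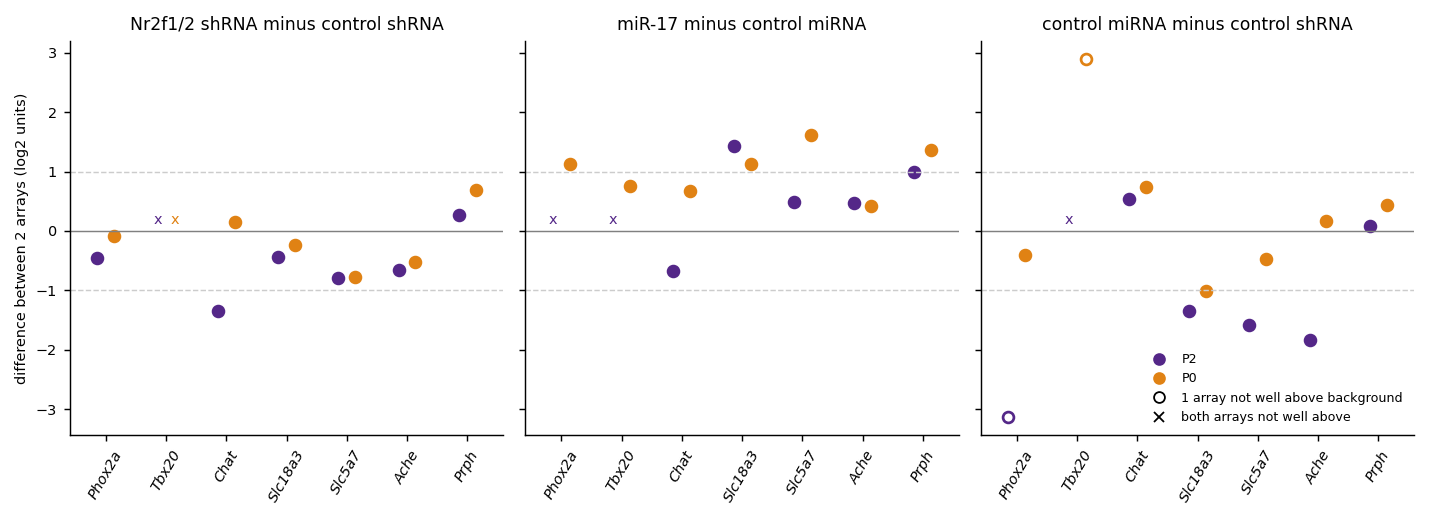
Differences between 2 arrays of the same passage (y axis, log2 units) for the knockdown, miR-17 and the control pair, with P2 in purple and P0 in orange, dashed lines at 2-fold, hollow points where 1 array was not well above background and crosses where both were not. In the miR-17 panel all 7 P0 points lie above 0, and in the control panel Phox2a, Slc18a3, Slc5a7 and Ache lie below the 2-fold line at P2.

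Across the 8 arrays the 7 genes did not move as 1 group. Phox2a and Ache had a Pearson r of 0.90 over the 8 arrays, Phox2a and Slc18a3 0.82, Slc18a3 and Ache 0.76, and Chat and Tbx20 0.89. Chat and Slc18a3 had 0.23, and Slc5a7 had between -0.37 and 0 with each of the others. These coefficients share the arrays and the passage difference and are given as a description, and every coefficient with Tbx20 rests on surrogate levels on 6 of the 8 arrays, and with Phox2a on 2.

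Among 7511 other genes (7512 for Tbx20) above background on at least 4 arrays and varying by an SD of at least 0.5, those most like Phox2a were Nefm (r = 0.992 over 8 arrays), the medium neurofilament, Cartpt (r = 0.991), a neuropeptide precursor, and Prdm12 (r = 0.988), a regulator of nociceptive neurons. In all 492 genes exceeded an r of 0.9 with Phox2a and 132 with Ache, against 33 with Tbx20, 14 with Slc18a3, 12 with Slc5a7, 9 with Chat and 3 with Prph. Slc18a3 was most like Slc35d3 (r = 0.953), Hmx1 (r = 0.949) and Galnt14 (r = 0.94), and Ache most like Slc16a14 (r = 0.984), Slc2a6 (r = 0.979) and Cyp2c67 (r = 0.978). Chat was most like Hoxc6 (r = 0.958), Olfr1388 (r = 0.946) and Foxi1 (r = 0.941). Olfr1388 (r = 0.956) was also, with Acnat1 (r = 0.966) and Klkb1 (r = 0.954), among those most like Tbx20. Slc5a7 was most like Tcerg1l (r = 0.961), Tacr1 (r = 0.935), the receptor of substance P, and Lrfn2 (r = 0.934), and Prph most like Cdk15 (r = 0.918), Pnmt (r = 0.912), which makes adrenaline, and Ctag2l1 (r = 0.902).

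The neighbouring genes of the pathway were read in the same passage fit. Among visceral and branchial motor neuron genes, Isl1, a LIM factor of all motor neurons, had a difference of -2.04 that did not pass (limma adjusted p = 0.284), and it reached 1.88 in shNr2f1/2 at P2 against -2.96 in shCont. Nkx2-9 and Tbx3 were likewise higher in shNr2f1/2 than in shCont at P2, by 3.99 and 3.57, with 1 array on each side. Of the 10 genes of that list measured in this pair, 5 were higher and 5 lower in shNr2f1/2, with a median of -0.1. By measured levels, 4 were at least 2-fold higher and 2 at least 2-fold lower.

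Of 10 somatic motor neuron genes, which serve skeletal muscle, 9 were compared and Mnx1 was not. Neurog2, a proneural factor, fell at least 46.7-fold (fitted difference -5.55, SE 0.85, limma adjusted p = 0.0421). Lhx4 fell at least 16.2-fold (fitted difference -4.28, SE 0.66, limma adjusted p = 0.0428), and Bcl6 rose 3.1-fold (SE 0.29 log2 units, limma adjusted p = 0.0471). The list median was 0.32.

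Of 14 cholinergic receptor and acetylcholine-handling genes, 12 were compared, 2 rose, 2 fell, and Chrna7 and Chrm3 were not compared. Bche, the butyrylcholinesterase that also splits acetylcholine, rose 4.51-fold (log2 difference 2.17, SE 0.26, limma adjusted p = 0.0351), with differences between 1.46 in the miRCont pair and 2.73 in the shNr2f1/2 pair. Slc44a1, a choline transporter of many cell types, rose at least 34.7-fold (fitted difference 5.31, SE 0.88, limma adjusted p = 0.0437), with 1 P0 array not well above background. Of the nicotinic receptor subunits, Chrna4 fell by 1.98 (SE 0.30, limma adjusted p = 0.0419) and Chrnb4 fell by 1.19 (SE 0.21, limma adjusted p = 0.0469). The list median was -0.81.

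Of 9 noradrenergic genes, all compared, 2 fell and 0 rose (median -1.16). Dbh, which makes noradrenaline, was at least 7.85-fold lower at P2, with 1 of 4 P2 arrays above background (fitted difference -4.04, SE 0.65, limma adjusted p = 0.0428). Tfap2b, a transcription factor of sympathetic neurons, fell by 3.37 (SE 0.42, limma adjusted p = 0.0362). Th, the first enzyme of the pathway, had a difference of -1.24 that did not pass (limma adjusted p = 0.0698). Maob went the other way and did not pass (fitted difference 3.83, SE 1.01, limma adjusted p = 0.0693). It was at least 11.9-fold higher at P2, with 3 of 4 P0 arrays above background. Of the 9 genes, 3 had higher and 6 had lower estimates at P2. At P2, with 1 array on each side, Dbh was at least 5.29-fold lower in shNr2f1/2 than in shCont and Slc6a2, the noradrenaline transporter, at least 4.25-fold lower, since neither was well above background on the shNr2f1/2 array. Hand2 and Slc18a2 were higher in shNr2f1/2 in that pair, by 3.70 and 1.51 log2 units. By measured levels, 2 of the 9 genes were at least 2-fold higher and 2 at least 2-fold lower. Phox2a, measured on both arrays, was 1.36-fold lower.

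Lhx8, a factor of forebrain cholinergic neurons, was at least 32.2-fold higher in shNr2f1/2 than in shCont at P2, with 1 array on each side and the shCont array not well above background. Of 6 filament and axon genes 0 passed the passage test in limma at the adjusted threshold, and Nefm and Nefl, the partners of Prph in the neuronal filament, had differences of -3.58 and -2.48 (limma adjusted p = 0.0518 and 0.0673). Of 10 neuron markers Elavl4 fell (-2.12, SE 0.35, limma adjusted p = 0.0437), and the list median was -0.46. Of the astrocyte and oligodendrocyte markers, 5 each, 3 and 2 rose, with medians of 5.92 and 4.39. The part of neurons and glia in the Phox2a and Slc18a3 differences was not tested.

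**Figure D4:**
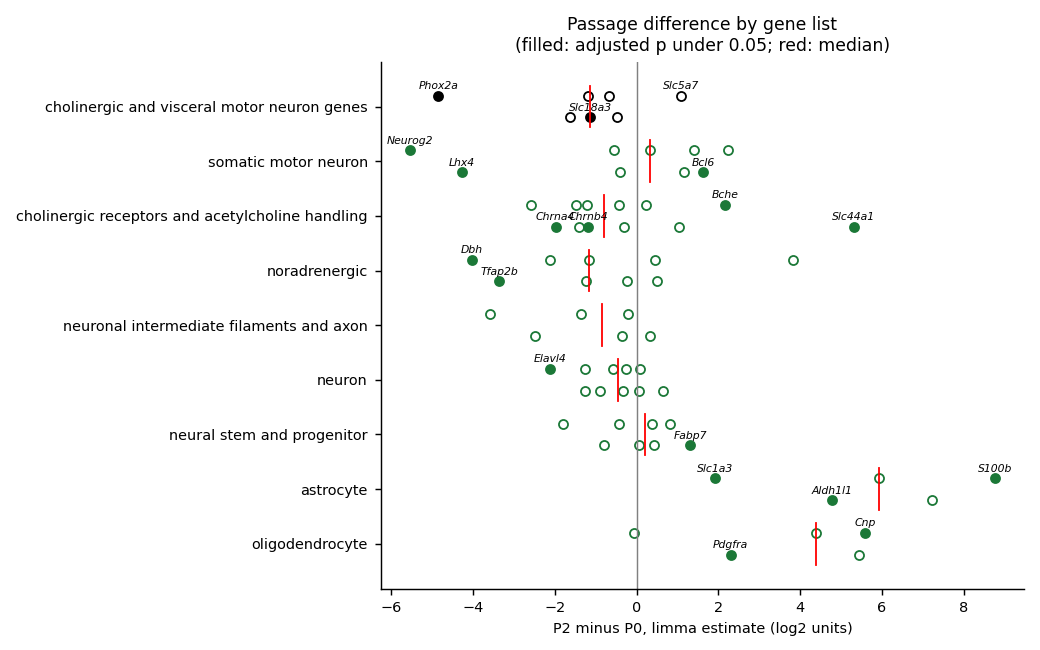
Limma estimate of the passage difference (x axis, P2 minus P0, log2 units) for the 7 genes at the top and for 8 lists, with filled points at an adjusted p under 0.05, gene names beside the called genes and Slc5a7, and list medians in red. Phox2a lies beside Dbh, Lhx4 and Neurog2 at the low end, Slc5a7 and Bche lie on the high side, and the astrocyte and oligodendrocyte medians are 5.92 and 4.39.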

How the data were processed

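The arrays were Agilent single-colour mouse arrays, Cy3-labelled from 50 ng of RNA per the labels' protocols, and read with Agilent Feature Extraction 10.7.3.1 per the submitters' processing notes. The deposited scanner files hold the intensity of each spot after subtraction of background, and dim spots carry a surrogate value, per the file headers. The authors' deposited signal table holds the same intensities scaled by a single factor for each array, and served as an alternative. From the deposited intensities, log2 values were averaged over a probe's spots and the array's 75th percentile subtracted. Control spots and 1104 outlier spots were left out, and 55653 probes remained. Probes needed to be flagged well above background on 2 or more of the 8 arrays, and the brightest probe stood for a gene.

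limma 3.58.1 in R 4.3.3 fitted condition and passage to 27255 genes (3 residual and 2.19 prior degrees of freedom), with Benjamini-Hochberg adjustment over all genes, two-sided, called under 0.05. Interactions with passage had 1 residual degree of freedom, and that with the vector system, added after seeing the data, had 2. Differences between single arrays have no test and were counted at 2-fold among genes above background on at least 1 of the 2 arrays. Where a probe was dim, "at least" folds replace its level by the lowest well-above-background signal of that array, or by its own level if higher. The fit was tested on simulated data. The number of arrays limits precision.

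The 7 genes and the 15 lists were chosen with earlier results of these data known. The rule for naming list genes was up to 4 per list by passage difference and up to 3 by knockdown or miR-17 difference at P2. Th and Chrnb4 were named outside that rule, as were genes named as not compared. Like genes were the 3 with the highest r for each of the 7, without placeholder names. The lists of crest and Schwann (Tfap2a fell), heart and mesoderm (0 called), skeletal muscle (0), erythroid (0), neural stem and progenitor (Fabp7 rose) and pluripotent genes (Zfp42 fell) gave few calls. Gene symbols were matched to RefSeq GRCm38.p6, probe coordinates are mm9 per the file headers, and the tables' sequences come from RefSeq. Some results of the visceral motor neuron and forebrain cholinergic lists are not reported here.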

Additional observations from a re-analysis of the deposited data

Results flagged for a closer look

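The passage difference of Phox2a was more negative in the miRNA vectors than in the shRNA vectors, an interaction of -2.93 log2 units (SE 0.39, limma adjusted p = 0.0341), with surrogate levels on both P2 miRNA arrays. Under normexp background correction it was -0.97 (limma adjusted p = 0.193). The passage difference of Ache differed in the same way, by -1.91 (SE 0.27, limma adjusted p = 0.0363), and its means were -2.15 in the miRNA vectors and -0.24 in the shRNA vectors. Vector system and slide column cannot be told apart. Among the 14 groups of 4 arrays examined, no array stood apart from the other 3 of its passage by the gap test.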

How the results depend on the processing

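Phox2a kept its passage direction in all 18 alternatives (-6.32 to -3.37, limma adjusted p 0.00228 to 0.156), losing the call in 8. Slc18a3 kept it in all 19 (-1.19 to -0.82, limma adjusted p 0.016 to 0.229), losing the call in 10. These alternatives are not all distinct. The authors' deposited table gave the same values by construction, and leaving out either array of a pair gave the same passage estimate. All 4 pairs were lower at P2 for both genes, so leaving out arrays could not turn the direction. The number of genes called for passage (1339, 52.6% higher) was 7077 with normexp background correction (30.6% higher), 3677 with probes above background on all 8 arrays (42.1% higher), 4320 with a trended prior (41.8% higher) and 3922 without the condition block (43.4% higher). It was 13792 in the miRNA vectors alone (38.1% higher), and 0 in limma in the control conditions alone and in the shRNA vectors alone (5755 and 5025 at an unadjusted p under 0.05). Leaving out 1 array gave 0 to 4809 genes and 0 to 2 of the 7, with 4809 without either shNr2f1/2 array and 0 without any of the other 6 (5826 to 8430 at an unadjusted p under 0.05). Of the 7 genes, 1 was called for passage with quantile normalization, with the filter on all 8 arrays and without the block. In the control conditions alone and in the shRNA vectors alone 0 were called. In the miRNA vectors alone 4 were called, with Ache and Tbx20 added, where 13792 of all 27255 genes were called. Tbx20 was admitted only through its 2 P0 miRNA arrays, so its fall there follows from how it was admitted and uses surrogate P2 levels. The control pair had 2 calls with the filter on all 8 arrays. The vector interaction called 435 genes and 0 of the 7 without a filter, 3778 with a trended prior (38.6% higher, against 20.7%), and 1 of the 7 with normexp and with the filter on all 8 arrays.

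Signs that turned were all of values that did not pass the test. Normexp gave 0 for the knockdown interaction of Phox2a, -0.03 for the miR-17 interaction of Slc18a3 and 0.16 for its vector interaction, and quantile normalization gave vector interactions of 0.30 for Slc18a3, 0.14 for Chat and 0.26 for Prph. Leaving out 1 array at a time, the knockdown estimate ran from -1.36 to 0.83 for Phox2a, -1.28 to 0.08 for Ache and -2.53 to 0.86 for Tbx20, each highest without shCont at P2. The miR-17 estimate ran from -0.48 to 1.97 for Phox2a, -0.21 to 1.1 for Ache, -0.49 to 0.48 for Chat and -2.48 to 1.2 for Tbx20, and the control difference of Tbx20 from -0.06 to 3.33. The passage difference of Chat was 0.03 in the control conditions alone. The cause of these changes was not tested.

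Normexp gave smaller miR-17 differences, of 0.69 at P2 and 0.79 at P0 for Slc18a3. The passage fit paired the P2 and P0 arrays of each condition through the condition block, and a block by replicate number could not be fitted because the labels give no replicate numbers. With 1 array a group and signals near background for Tbx20 and, at P2, Phox2a, neither small differences nor absence of expression can be read from these values.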
